A study of Mus musculus with 12 samples.

Results

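The comparison described here is the effect of dextran sulfate sodium (DSS) on the mouse liver transcriptome, averaged over 2 diets. All 12 liver libraries of the series entered it: 6 from mice given DSS were set against 6 from mice without it, and diet was the second factor. The livers came from wild-type C57BL/6J mice in 4 groups of 3 libraries, labelled CD, HFD, CD+2% DSS and HFD+2% DSS, where HFD is a high-fat diet. The labels do not spell out CD, and give neither the age or sex of the mice nor the length of either treatment. They number the samples within a group without saying that each was a separate animal, so the p-values measure the spread between these libraries, which may in part be technical. Genes were tested where they reached 1 FPKM (fragments scaled to exon length and library size) in at least 3 of the 12 libraries, which 10806 of 54532 gene entries did.

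DSS is a sulfated polysaccharide that injures the colonic epithelium when given in drinking water and is the standard chemical model of colitis. The liver receives the blood that drains the gut. In inflammation, cytokines such as interleukin-6 (IL-6) and interleukin-1 act on hepatocytes through the transcription factors STAT3, NF-kB and C/EBP, and the cells secrete more acute phase proteins. Hepatocytes also carry most of the body's gluconeogenesis, urea synthesis, bile acid synthesis and drug oxidation, and transcripts of these functions are known to fall during acute inflammation.

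Averaged over the diets, 942 genes were higher and 1215 lower in the DSS livers (limma, adjusted p under 0.05), which is 20.0% of the tested genes, 8.72% in the higher and 11.2% in the lower direction. Most differences were small: 1428 of the 2157 called genes moved by less than 0.5 on the log2 scale, while 82 rose and 99 fell by at least 1. All values of log2 change are of FPKM + 1, which understates the change of genes with low FPKM, and each compares 6 libraries with 6. At an unadjusted p under 0.05 there were 3779 genes (35.0%). Leaving out 1 library gave fewer calls for 9 of the 12 libraries and more for HFD 1, CD_DSS 1 and HFD_DSS 2 (up to 2668). The count fell by more than 1.5 times for 4, to 1306 without HFD 2, 1356 without CD_DSS 3, 1375 without HFD_DSS 3 and 1421 without HFD_DSS 1. With any single library left out, 486 higher and 689 lower genes kept their call throughout, 54.5% of all calls. The split also moved with the scale of the libraries: with all libraries rescaled to the same summed FPKM (TPM scaling), 1016 genes were higher and 728 lower, and with quantile normalisation 1029 and 1056.

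Over 10% of the exon length is shared with another annotated gene in Acaa1b, Cyp2f2, Sqstm1, Pklr, Apoa4, Becn1 and Mt2 (up to 73.5%), and near-identical copies exist in the Cyp, Ugt2b, Ces, Saa and Mt families, so the values of these genes may hold fragments of others.

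Before any gene is described, 3 libraries stand apart and bear on every value below. Each library was placed on the DSS effect fitted without it, over the genes called in the fit of the other 11 libraries, so that 0 is the untreated mean of its diet and 1 a full average effect. The other untreated libraries lay between -0.149 and 0.155, and the other DSS libraries between 1.027 and 1.234. The untreated library HFD 1 lay at 0.467, CD_DSS 1 at 0.424 and HFD_DSS 2 at 0.605. HFD 1 had moved further on the genes that rose (0.632) than on those that fell (0.274), whereas CD_DSS 1 had moved less on the genes that rose (0.315) than on those that fell (0.539). Without these 3 libraries 3359 genes were called, 1489 higher and 1870 lower. They were picked for their place on this same effect, so the larger number follows from the choice and supports nothing. Nothing in the files used here checks the labels of these 3 libraries independently, so whether the labels hold for them was not tested, and every value below takes the labels as deposited.

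**Figure D1:**
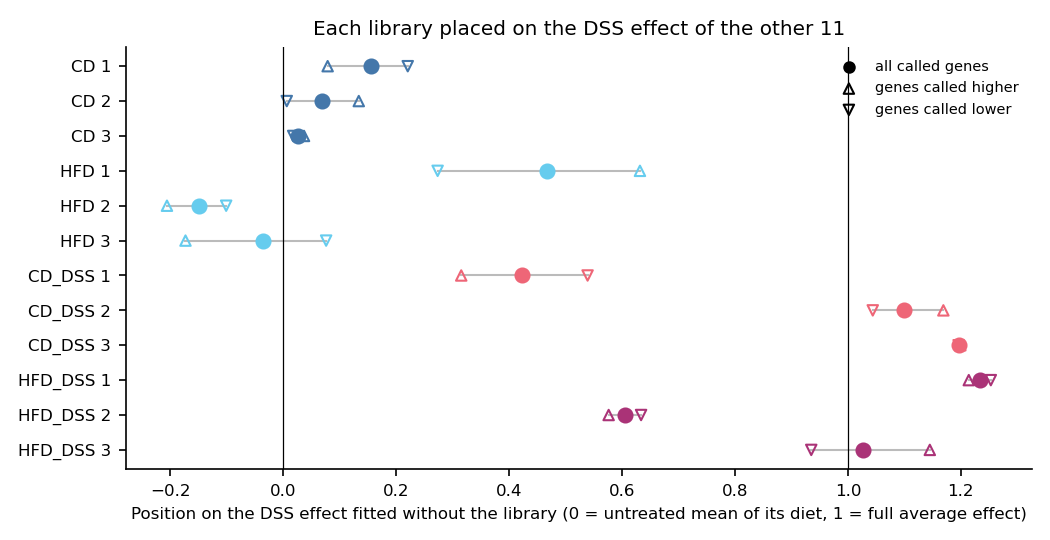
Position of each of the 12 libraries on the average DSS effect fitted from the other 11 (x axis, 0 is the untreated mean of the same diet and 1 the full effect). Filled circles are all genes called in that fit, upward triangles the genes called higher and downward triangles those called lower; HFD 1 (0.467), CD_DSS 1 (0.424) and HFD_DSS 2 (0.605) lie between the 2 clusters.

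Socs3, Fga, Fgb and Steap4 rose with DSS, and the stretches upstream of their start sites are shown because each holds the palindrome TTCNNNGAA, the core to which STAT factors are known to bind. They are the 250 bases before the transcription start in RefSeq (GRCm38.p6), 5′ to 3′ on the strand of the gene, with the palindrome in capitals. Steap4, a metalloreductase induced in inflammation, was chosen after its values were seen, and changed by 1.97 ± 0.44 (SE, adjusted p = 0.0116). Socs3 is at chr11:117969367-117969616 on the minus strand, Fga at chr3:83025903-83026152 on the plus strand, Fgb at chr3:83049864-83050113 on the minus strand and Steap4 at chr5:7960222-7960471 on the plus strand.
Socs3: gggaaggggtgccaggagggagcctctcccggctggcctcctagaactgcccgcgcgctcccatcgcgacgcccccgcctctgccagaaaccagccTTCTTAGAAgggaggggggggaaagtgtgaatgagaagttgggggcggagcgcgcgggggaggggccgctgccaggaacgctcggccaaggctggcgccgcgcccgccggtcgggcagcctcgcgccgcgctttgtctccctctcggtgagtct
Fga: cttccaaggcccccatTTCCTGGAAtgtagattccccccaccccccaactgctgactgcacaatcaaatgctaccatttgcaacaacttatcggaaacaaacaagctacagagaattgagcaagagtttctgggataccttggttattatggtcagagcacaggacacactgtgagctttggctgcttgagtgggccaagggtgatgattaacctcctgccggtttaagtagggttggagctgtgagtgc
Fgb: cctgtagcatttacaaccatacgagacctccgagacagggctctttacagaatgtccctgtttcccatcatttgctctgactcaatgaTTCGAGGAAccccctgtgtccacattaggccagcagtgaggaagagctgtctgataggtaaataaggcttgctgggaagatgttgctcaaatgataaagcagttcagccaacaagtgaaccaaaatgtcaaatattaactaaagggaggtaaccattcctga
Steap4: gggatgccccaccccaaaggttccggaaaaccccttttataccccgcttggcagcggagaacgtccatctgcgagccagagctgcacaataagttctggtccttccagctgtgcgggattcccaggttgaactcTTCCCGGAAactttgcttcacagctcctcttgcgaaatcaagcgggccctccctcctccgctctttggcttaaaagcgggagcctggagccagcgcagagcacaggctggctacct

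A promoter of 300 bases, 250 before and 50 after the start, was found for 7984 tested genes. TTCNNNGAA, which reads the same on both strands, was in 6.6% of them, in 68 of the 725 promoters of genes called higher (9.38%) and in 51 of the 925 of genes called lower (5.51%). Of the 21 acute phase promoters 5 held it, those of Apcs, Fga, Fgb, Steap4 and Itih4. The C/EBP word TTGCNNAA, searched on both strands, was in 8.92% of all these promoters, in 9.38% of those called higher, in 11.57% of those called lower and in 12 of the 21 acute phase promoters. The composite word of ATF4 and C/EBP, TGATGNAA, was in 2.17% of all, 3.31% of the higher and 2.59% of the lower promoters, and the HNF4 word CAAAGTCCA in 0.59%, 0.55% and 1.19%, both strands included. The NF-kB motif was in 1.6%, 1.79% and 2.05%. Motifs were searched one by one and may overlap. These are matches of letters and were not tested as binding sites.

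Among signal transducers of the IL-6 family the inhibitor Socs3, which STAT3 induces and which blocks the receptor's kinase, changed most. Socs3 was at 0.939 to 4.02 FPKM (median 1.31) in the untreated and 7.67 to 26.7 FPKM (median 11.0) in the DSS livers, a difference of 2.36 ± 0.24 (SE, adjusted p = 0.000527). No DSS library overlapped an untreated one, and the highest untreated value came from HFD 1. Stat3 itself rose from 14.7 to 22.2 FPKM (median 16.8) to 24.5 to 34.7 FPKM (median 29.9), by 0.73 ± 0.10 (adjusted p = 0.00170), again without overlap. Of the receptors, Il6ra (IL-6 receptor alpha chain) rose by 0.63 ± 0.11 and Il1r1 (interleukin-1 receptor) by 1.49 ± 0.31, with adjusted p of 0.00348 and 0.00869. Of 31 tested genes on the list of IL-6 family receptors, STAT3 and its feedback, 14 rose and 1 fell, with a median change of 0.279 against -0.008 over all tested genes. Nfkbiz, an atypical IkB protein that works as a co-activator of NF-kB in the nucleus, rose by 1.46 ± 0.20 (adjusted p = 0.00175). Bcl3, another nuclear IkB protein, rose by 1.28 ± 0.29 (adjusted p = 0.0126).

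The cytokines that start this cascade were scarcely present in the liver RNA. Il6 and Tnf stayed below the filter, with a highest value in any library of 0.0482 FPKM for Il6 and 0.255 FPKM for Tnf, and Ccl2 below it with a highest value of 2.36 FPKM in HFD 1. Il1b was tested and did not pass, at 0.520 to 2.38 FPKM (median 1.16) untreated and 0.509 to 2.56 FPKM (median 1.48) with DSS (0.05 ± 0.24, adjusted p = 0.914). Of 17 tested chemokines and cytokines 4 rose and 1 fell, the latter number being 0 without any one of 10 libraries and under TPM scaling. Cxcl1, a chemokine that attracts neutrophils and that hepatocytes make in inflammation, rose most, from 0.408 to 8.13 FPKM (median 1.11) to 14.6 to 70.9 FPKM (median 20.2). Its change was 3.49 ± 0.46 (adjusted p = 0.00135), and the groups did not overlap although HFD 1 was at 8.13 FPKM against at most 1.455 in the other untreated libraries.

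The immediate early genes, transcribed within minutes of a stimulus, were called higher in 10 of 21 tested, with none lower and 11 that did not pass, and had a median of 0.418. Klf10, a zinc finger repressor, was at 0.836 to 1.98 FPKM (median 1.55) untreated and 4.62 to 7.80 FPKM (median 6.55) with DSS (1.58 ± 0.13, adjusted p = 0.000192). Its gene lies at chr15:38291463-38300706 (GRCm38). Junb, a subunit of the AP-1 transcription factor, rose by 1.55 ± 0.22 (adjusted p = 0.00182). Gadd45b, a stress sensor, rose from 0.183 to 0.624 FPKM (median 0.522) to 1.27 to 2.34 FPKM (median 1.67), by 0.86 ± 0.11, and Atf3, an ATF family repressor, by 0.73 ± 0.10. In all 4 the lowest DSS library was above the highest untreated one. With any 1 library left out 9 to 11 of the list were higher, and 1 was lower without HFD 2.

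Acute phase proteins had the largest median change of the lists with at least 10 tested genes. Of 30 tested, 23 rose and 1 fell, between 19 and 28 rose with any 1 library left out, and 29 rose without the 3 intermediate libraries. The median change was 1.418 on the log2 scale, 1.275 on the CD and 1.549 on the high-fat diet. Together their transcripts made up 4.40 to 8.10% of the summed FPKM of an untreated library (median 4.97%) and 5.23 to 16.0% with DSS (median 12.0%). CD_DSS 1, at 5.23%, was inside the untreated range, and HFD 1 held the highest untreated value. The sides therefore overlapped in this share, by those 2 libraries.

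Itih4, a serum inhibitor of the inter-alpha-trypsin family at chr14:30886476-30902353, was at 491 to 632 FPKM (median 514) untreated and 692 to 1978 FPKM (median 1694) with DSS, a change of 1.38 ± 0.24 (adjusted p = 0.00414) with no overlap. Apcs, the serum amyloid P component and a major acute phase protein of the mouse, rose by 2.80 ± 0.56 (adjusted p = 0.00708), from 43.5 to 159 FPKM (median 56.3) to 96.3 to 1230.5 FPKM (median 656). Its lowest DSS value, in CD_DSS 1, lay below the 159 FPKM of HFD 1. The fibrinogen chains Fga and Fgb rose by 1.26 ± 0.22 and 1.23 ± 0.23, with adjusted p of 0.00434 and 0.00609. Fga was at 1454 to 2558 FPKM (median 1729.7) untreated and 2539.7 to 5593 FPKM (median 4992) with DSS. The haptoglobin gene Hp rose by 1.60 ± 0.40 (adjusted p = 0.0182), and ceruloplasmin, Cp, which carries copper, by 0.85 ± 0.16 (adjusted p = 0.00573).

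Metallothioneins, which bind zinc and are induced by both IL-6 and glucocorticoids, had the highest average change of the named genes. Mt1 was at 2.64 to 68.3 FPKM (median 7.90) untreated and 24.4 to 714 FPKM (median 493) with DSS (4.48 ± 0.93, adjusted p = 0.00831). Mt2 changed by 4.60 ± 0.87 (adjusted p = 0.00573), but 73.5% of its exon length is shared with another annotated gene, and its call was lost when the recovered fragments were tested with voom. Slc39a14, the zinc importer that IL-6 induces in hepatocytes, rose by 1.19 ± 0.24 (adjusted p = 0.00780). Lcn2 (lipocalin 2, which binds bacterial siderophores) rose by 4.26 ± 1.04 (adjusted p = 0.0162), from 0.746 to 35.8 FPKM (median 1.65) to 2.35 to 423 FPKM (median 96.7). Orm2, an orosomucoid, rose by 3.75 ± 0.98 (adjusted p = 0.0226), a call that was lost without HFD 2, HFD 3, CD_DSS 2, CD_DSS 3, HFD_DSS 1 or HFD_DSS 3.

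The serum amyloid A genes, the classical acute phase reactants of the mouse, did not pass the test over both diets. Saa1 changed by 2.95 ± 1.16 (adjusted p = 0.0963), Saa2 by 3.79 ± 1.34 (adjusted p = 0.0684) and Saa3 by 0.92 ± 0.42 (adjusted p = 0.142). Single libraries decided this: Saa1 passed without HFD 1 or CD_DSS 1, Saa2 without HFD 1, CD_DSS 1 or HFD_DSS 2, and Saa3 without HFD_DSS 2 (lowest adjusted p = 0.0129, 0.0129 and 0.0409, against highest values of 0.199, 0.149 and 0.289 without another library). All 3 passed without the 3 intermediate libraries. In CD_DSS 1 both Saa1 (9.14 FPKM) and Saa2 (2.70 FPKM) were below all untreated libraries, and HFD 1 was the highest untreated library for all 3 genes. Of 20 tested genes of negative acute phase and secreted carrier proteins 4 rose (Kng1, Ahsg, Fetub and Cfi) and 3 fell, with a median of 0.044. Of all tested genes 8.72% rose and 11.2% fell. With any 1 library left out 1 to 5 of the list rose and 2 to 4 fell. Among secreted proteins known to fall in inflammation, Rbp4 (retinol carrier) changed by -0.38 ± 0.09 (adjusted p = 0.0137) and without overlap. Its call was lost after quantile normalisation and with no filter on low values. The albumin gene Alb (0.07 ± 0.17, adjusted p = 0.802) and the transthyretin gene Ttr (-0.40 ± 0.13, adjusted p = 0.0514) did not pass, although Ttr did without CD_DSS 1 or HFD_DSS 2 and with voom. Kng1, the kininogen gene, rose by 0.71 ± 0.17 (adjusted p = 0.0146), from 425 to 517 FPKM (median 490.1) to 521 to 1060.3 FPKM (median 823). Complement C3, the central protein of the cascade, rose by 1.03 ± 0.21 (adjusted p = 0.00741).

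**Figure D2:**
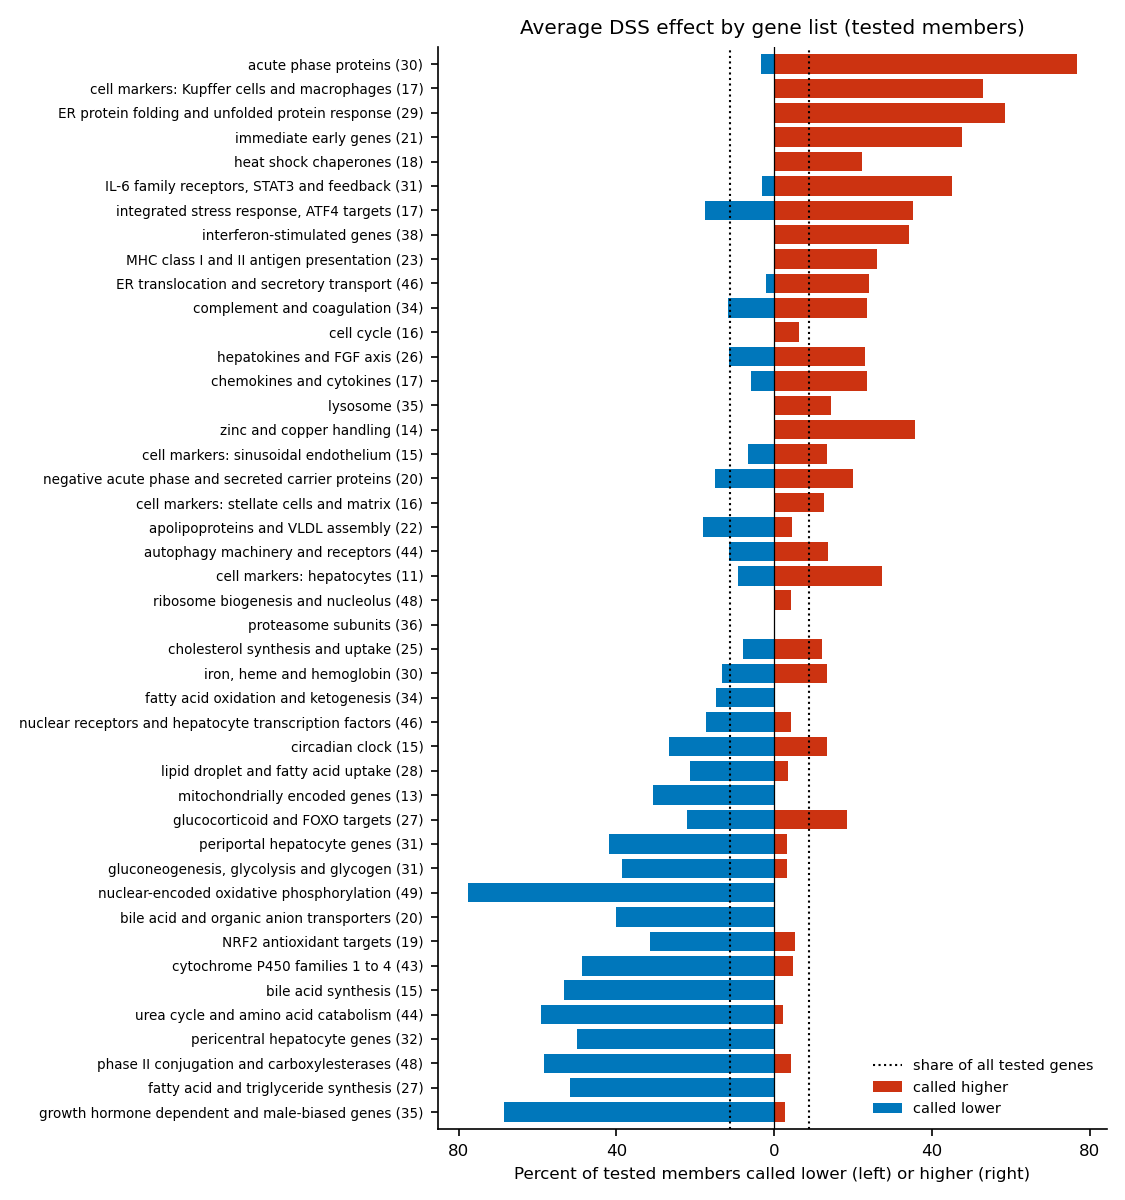
Percent of the tested members of each gene list called higher (red, right) or lower (blue, left) for the average DSS effect, with the number tested in brackets and lists ordered by median change. Dotted lines mark the shares of all tested genes, 8.72% higher and 11.2% lower; the bars for acute phase genes called higher (23 of 30) and oxidative phosphorylation genes called lower (38 of 49) reach beyond them.

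Genes with the clearest rise were in part outside the inflammatory lists. Zbtb16 (PLZF, a transcription factor that glucocorticoids induce) had the smallest adjusted p of the named genes. It was at 1.32 to 4.13 FPKM (median 2.20) untreated and 9.16 to 12.1 FPKM (median 11.6) with DSS, a change of 1.88 ± 0.11 (adjusted p = 2.99e-05) without overlap. Fkbp5, an immunophilin and another glucocorticoid target, rose by 1.43 ± 0.18 (adjusted p = 0.00104). Of the list of glucocorticoid and FOXO targets 5 of 27 tested genes were higher and 6 lower, with a median of -0.272. The number lower was 3 without CD 2 or HFD 2, and 11 without CD_DSS 1 or without the 3 intermediate libraries. Isyna1, the synthase that makes inositol phosphate from glucose 6-phosphate, rose from 2.20 to 5.38 FPKM (median 3.59) to 6.73 to 47.8 FPKM (median 38.5), by 2.53 ± 0.47 (adjusted p = 0.00542). Acnat2, an acyl-CoA N-acyltransferase, rose by 2.03 ± 0.28, Arrdc3, an arrestin-domain protein, by 1.67 ± 0.34 and Gas6, a ligand of the TAM receptor kinases, by 1.45 ± 0.27. The adjusted p were 0.00177, 0.00805 and 0.00549, and the 6 DSS values were above the 6 untreated ones in each. Some genes named in this text entered because their sides did not overlap, so for them that trait is no added support. Of all 10806 tested genes 296 were separated in the higher direction.

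Hnf4a, the nuclear receptor that keeps hepatocyte identity, rose by 0.53 ± 0.08 (adjusted p = 0.00231). It was at 135 to 161 FPKM (median 156) untreated and 198 to 263 FPKM (median 217) with DSS, so the groups did not overlap. Sox9, a transcription factor of the bile duct lineage, rose by 0.91 ± 0.07 (adjusted p = 0.000130), from 1.37 to 1.94 FPKM (median 1.51) to 3.16 to 4.44 FPKM (median 3.91). It was the only 1 of 5 tested cholangiocyte markers to pass, and 1 of 2 without HFD 1. Angptl8, a secreted inhibitor of lipoprotein lipase, rose by 1.41 ± 0.22 (adjusted p = 0.00280), also without overlap. Ldha, the lactate dehydrogenase subunit, was the only gene of 31 in gluconeogenesis, glycolysis and glycogen metabolism that rose (0.75 ± 0.10, adjusted p = 0.00170), against 3 without CD_DSS 1.

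**Figure D3:**
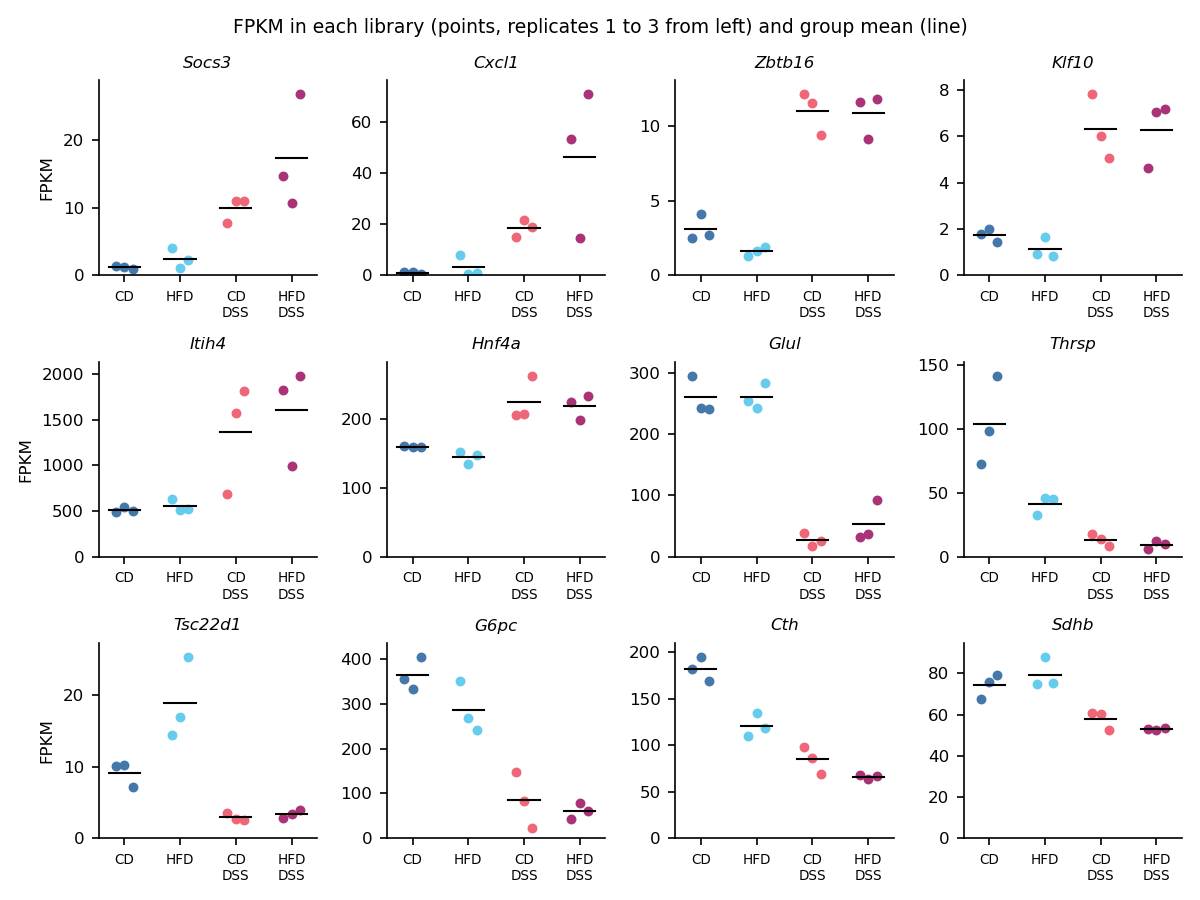
FPKM (y axis, linear from 0) of 12 genes in each library, with replicates 1 to 3 from left to right in each of the 4 groups and a line at the group mean. Socs3, Cxcl1, Zbtb16, Klf10, Itih4 and Hnf4a were higher and Glul, Thrsp, Tsc22d1, G6pc, Cth and Sdhb lower with DSS, and in none of the 12 did the 6 DSS values overlap the 6 untreated ones. Lack of overlap was an entry condition for some named genes, so it is no separate finding for them. Of all tested genes 6.59% were separated.

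Chaperones and folding enzymes of the endoplasmic reticulum, where secreted proteins mature, rose in number but with less certainty. Of 29 tested, 17 rose and none fell, with a median of 0.52. Hspa5 (BiP, the main chaperone there) was at 189 to 437 FPKM (median 370.3) untreated and 444 to 1081 FPKM (median 574) with DSS (0.89 ± 0.25, adjusted p = 0.0288), without overlap, yet the call was lost without any one of HFD 2, HFD 3, CD_DSS 2, CD_DSS 3, HFD_DSS 1 or HFD_DSS 3. The number higher was 8 without CD 1, 5 without HFD 2, 7 without HFD 3, 7 without CD_DSS 2, 4 without CD_DSS 3, 6 without HFD_DSS 1 and 4 without HFD_DSS 3. It was 26 without the 3 intermediate libraries and 26 after quantile normalisation. Xbp1, the transcription factor of this response, did not pass (0.48 ± 0.19, adjusted p = 0.0966), except without CD_DSS 1, without the 3 libraries or after quantile normalisation. Ddit3 (CHOP), which unresolved folding stress induces, rose by 1.22 ± 0.19 (adjusted p = 0.00287), from 1.83 to 3.26 FPKM (median 2.70) to 3.86 to 11.7 FPKM (median 7.44), without overlap.

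Interferon-stimulated genes rose in 13 of 38 tested with none lower, and in 8 without HFD 2 or without HFD_DSS 3. Irf1, an interferon regulatory factor, rose by 0.89 ± 0.16 (adjusted p = 0.00480) and Igtp, an immunity-related GTPase, by 0.65 ± 0.13 (adjusted p = 0.00786). Markers of Kupffer cells, the liver's resident macrophages, were higher in 9 of 17 tested genes, with a median of 0.523. Marco, a scavenger receptor for bacteria, was at 1.95 to 4.94 FPKM (median 3.05) untreated and 5.14 to 19.8 FPKM (median 11.6) with DSS (1.52 ± 0.31, adjusted p = 0.00787), without overlap. The marker count rested on single libraries: it was 4 without CD 2, CD 3, HFD 2 or HFD_DSS 1, 3 without HFD 3, CD_DSS 2, CD_DSS 3 or HFD_DSS 3, 15 without CD_DSS 1 and 16 without the 3 intermediate libraries. The summed level of the markers was 319 to 502 FPKM untreated and 363 to 658 FPKM with DSS. In bulk tissue, more cells of a type and more RNA per cell cannot be told apart. Cd68, a pan-macrophage marker, did not pass (0.49 ± 0.16, adjusted p = 0.0590), but did without HFD 1, CD_DSS 1 or HFD_DSS 2 and under TPM scaling.

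The 12 neutrophil markers had a sum of 2.08 to 25.9 FPKM untreated and 4.44 to 61.8 FPKM with DSS. Only 4 of them reached the filter and were tested, and none passed. All 4 had an unadjusted limma p under 0.05, and voom on the recovered fragments called none. The number called higher was 3 without HFD 1 or CD_DSS 1, 4 without HFD_DSS 2, 4 without the 3 intermediate libraries and 1 under TPM scaling. Ly6g, which defines neutrophils, was listed at 0 in all untreated libraries and reached 0.177 FPKM with DSS. S100a8, a calgranulin subunit, changed by 1.42 ± 0.56 (adjusted p = 0.0958), and passed without HFD 1 or HFD_DSS 2. Of 15 markers of T, NK and B cells only 3 reached the filter, with 1 higher and 1 lower, so these cells were hardly covered. Cd4, a T cell co-receptor, fell from 0.941 to 1.77 FPKM (median 1.20) to 0.145 to 0.903 FPKM (median 0.466), a change of -0.57 ± 0.10 (adjusted p = 0.00534). Jchain, of plasma cells, rose by 0.56 ± 0.13 (adjusted p = 0.0121). The part of immune cells in the changes described here was not tested.

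Among the genes that fell, Glul was low in every DSS liver. It encodes glutamine synthetase, which in the liver is confined to the hepatocytes around the central vein. Its level was 242 to 295 FPKM (median 248) untreated and 17.6 to 92.0 FPKM (median 34.6) with DSS, a change of -2.84 ± 0.25 (adjusted p = 0.000209), so that the highest DSS value was under the lowest untreated one. Of 32 tested pericentral genes 16 fell and none rose, with a median of -0.449, and 10 fell without CD 1, HFD 2 or HFD_DSS 1. Cyp2a5, a coumarin hydroxylase, changed by -2.91 ± 0.31 (adjusted p = 0.000608), Cyp1a2 by -1.75 ± 0.31 (adjusted p = 0.00484) and Oat, ornithine aminotransferase, a change of -1.35 ± 0.23 (adjusted p = 0.00398). Cyp2e1, the ethanol-oxidising P450 of the same cells, did not pass (-0.23 ± 0.13, adjusted p = 0.240). Periportal genes also fell, 13 of 31 tested with 1 higher and a median of -0.272. Among them Cyp2f2 fell from 459.9 to 601 FPKM (median 551) to 229 to 333 FPKM (median 289.6), a change of -0.93 ± 0.10 (adjusted p = 0.000546), and Gls2, the liver glutaminase, a change of -0.84 ± 0.11 (adjusted p = 0.00132). Genes of both ends of the lobule were thus lower, and whether the 2 zones differed in size of change was not tested.

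Urea cycle and amino acid catabolism lost expression broadly, with 26 of 44 tested genes lower and 1 higher, a median of -0.415 and 24 to 31 lower with any 1 library left out. Cth, cystathionine gamma-lyase, was at 110.2 to 194 FPKM (median 152) untreated and 63.6 to 98.4 FPKM (median 69.0) with DSS (-0.98 ± 0.09, adjusted p = 0.000346), without overlap. Its gene lies at chr3:157894248-157925077 (GRCm38). Bhmt, which remethylates homocysteine with betaine, changed by -0.97 ± 0.15 (adjusted p = 0.00288) and Ddc, the aromatic amino acid decarboxylase, a change of -1.05 ± 0.19 (adjusted p = 0.00488). Ass1, argininosuccinate synthase of the urea cycle, changed by -0.78 ± 0.12 (adjusted p = 0.00280), with 857 FPKM in CD_DSS 1 and 678 in HFD 1. The share of the list in the summed FPKM was 2.20 to 3.15% untreated and 1.91 to 2.48% with DSS.

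In glucose metabolism 12 of 31 tested genes fell, against 11.2% of all tested genes. The number was 9 to 17 with any 1 library left out, and 8 under TPM scaling or quantile normalisation. G6pc, the catalytic subunit that releases glucose from glucose 6-phosphate, was at 242 to 403 FPKM (median 342) untreated and 23.7 to 147 FPKM (median 70.5) with DSS, a change of -2.33 ± 0.35 (adjusted p = 0.00237) with no overlap. Pygl, liver glycogen phosphorylase, changed by -0.78 ± 0.13 (adjusted p = 0.00344) and Pklr, pyruvate kinase of the opposite pathway, a change of -0.78 ± 0.17 (adjusted p = 0.0101). Pck1, which opens gluconeogenesis, did not pass (-0.27 ± 0.21, adjusted p = 0.391). Enzymes of both glucose release and glycolysis were therefore among the genes that fell.

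All 27 tested genes of fatty acid and triglyceride synthesis had a negative average change, and 14 passed the test (median -0.574). The number was 9 without CD 3 or without HFD 2, and 23 without the 3 intermediate libraries. Thrsp (Spot 14), a regulator of lipogenesis, was at 32.5 to 141 FPKM (median 59.4) untreated and 6.13 to 17.5 FPKM (median 11.1) with DSS, a change of -2.46 ± 0.21 (adjusted p = 0.000209) without overlap. Scd1, the stearoyl-CoA desaturase, changed by -2.84 ± 0.62 (adjusted p = 0.0106), but CD_DSS 1 held 1307 FPKM, within the untreated range of 108 to 1598 FPKM (median 960.2). Acacb, acetyl-CoA carboxylase of the mitochondrial surface, changed by -1.29 ± 0.24 (adjusted p = 0.00593). Fasn, fatty acid synthase, changed by -0.81 ± 0.24 (adjusted p = 0.0352), and its call was lost under TPM scaling and without CD 1, CD 3, HFD 2, HFD 3, CD_DSS 2, CD_DSS 3, HFD_DSS 1 or HFD_DSS 3. In fatty acid oxidation and ketogenesis 5 of 34 tested genes fell (14.7%, near the 11.2% of all tested genes) and none rose. That count moved with single libraries: 1 fell without HFD 2 or CD_DSS 2, 2 without CD 2, CD 3, CD_DSS 3, HFD_DSS 1 or HFD_DSS 3, 3 without HFD 3, 9 without CD_DSS 1 and 8 without HFD_DSS 2. It was 1 under TPM scaling or quantile normalisation and 13 without the 3 intermediate libraries. Acaa1b, a peroxisomal thiolase, changed by -1.51 ± 0.34 (adjusted p = 0.0114), whereas Ppara, the nuclear receptor that induces fatty acid oxidation, did not pass (-0.08 ± 0.20, adjusted p = 0.827). Of the apolipoproteins, Apoc3 changed by -0.48 ± 0.09 (adjusted p = 0.00534) without overlap and Apoa4 did not pass (-0.57 ± 0.23, adjusted p = 0.0965) unless CD_DSS 1 was left out.

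Bile acid synthesis fell in 8 of 15 tested genes and rose in none, with 5 lower without CD 2, CD 3 or CD_DSS 3. Cyp8b1, the 12-alpha-hydroxylase that makes cholic acid, changed by -0.87 ± 0.12 (adjusted p = 0.00161), with -1.48 on the CD and -0.26 on the high-fat diet. Cyp7a1, the rate-limiting enzyme, changed by -1.93 ± 0.48 on average (adjusted p = 0.0185), with -3.83 on the CD and -0.02 on the high-fat diet. For both genes the estimates were unequal between the diets, but the difference was not called. Its unadjusted limma p was 0.00219 for Cyp7a1 and 0.000306 for Cyp8b1 (adjusted p = 0.699 and 0.491). Over all tested genes 4.93% had an unadjusted p under 0.05 for the difference. Cyp27a1 did not pass (-0.32 ± 0.12, adjusted p = 0.0755), but did without HFD 1 or CD_DSS 1. Amacr, a racemase of the side chain pathway, fell from 56.0 to 79.3 FPKM (median 63.8) to 33.7 to 53.5 FPKM (median 43.9), a change of -0.59 ± 0.10 (adjusted p = 0.00398).

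Of 20 tested bile acid and organic anion transporters 8 fell, 5 without CD 2, 4 without HFD 2 and 4 under TPM scaling. Slc47a1, which exports organic cations, changed by -0.58 ± 0.10 (adjusted p = 0.00391), without overlap. Abcb11, the bile salt export pump, changed by -0.58 ± 0.15 and Slc10a1, the bile acid uptake carrier, a change of -0.32 ± 0.08, with adjusted p of 0.0201 and 0.0187. Abcb11 lost its call without CD 2 or HFD 2 and Slc10a1 without HFD 2, and both lost it under TPM scaling. The bile acid receptor Nr1h4 (-0.22 ± 0.09, adjusted p = 0.103) and its target Nr0b2 (-0.02 ± 0.23, adjusted p = 0.968) did not pass.

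Genes of drug metabolism fell in both phases. Of the cytochrome P450 families 1 to 4, 21 of 43 tested genes fell and 2 rose. Of phase II conjugation and carboxylesterases 28 of 48 fell and 2 rose, against 11.2% and 8.72% of all tested genes. With any 1 library left out 16 to 24 of the P450 and 23 to 36 of the phase II genes fell. Under TPM scaling 16 and 22 fell. Ces2c, a carboxylesterase, showed the strongest fall of the named genes, from 14.7 to 36.7 FPKM (median 23.2) to 0.10 to 5.83 FPKM (median 1.51), a change of -3.20 ± 0.40 (adjusted p = 0.00104), without overlap. The glucuronosyltransferase Ugt2b1 changed by -1.44 ± 0.23 (adjusted p = 0.00271) and Inmt, an N-methyltransferase, a change of -1.23 ± 0.22 (adjusted p = 0.00483). Cyp3a11, the main drug-oxidising P450 of the mouse liver, changed by -0.95 ± 0.22 on average (adjusted p = 0.0131), with -0.29 on the CD and -1.62 on the high-fat diet.

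The genes that growth hormone maintains in male liver had the lowest median of those lists (-0.79), with 24 of 35 tested lower and 1 higher, and 19 to 25 lower with any 1 library left out. Cyp4a12a, a male-specific fatty acid hydroxylase, was at 89.5 to 197 FPKM (median 156) untreated and 18.2 to 57.7 FPKM (median 36.7) with DSS (-2.11 ± 0.30, adjusted p = 0.00187), without overlap. Hsd3b5, a male-specific steroid enzyme, changed by -1.43 ± 0.25 (adjusted p = 0.00480). Igf1, whose transcription growth hormone drives, did not pass on average (-0.04 ± 0.07, adjusted p = 0.725), with -0.32 on the CD and 0.23 on the high-fat diet. The list shares several members with the P450 and glucuronosyltransferase lists and so is not a separate count. It also differed from the acute phase list in the intermediate libraries. In CD_DSS 1 the median member of the growth hormone list was -0.444 from its mean over the libraries, near the other CD_DSS libraries (-0.648 and -0.71). The median acute phase gene was there at -0.701, near the untreated ones (-0.983 to -0.679 without HFD 1, which was at 0.214). In HFD 1 the growth hormone list was at 0.587, the highest of the 12 libraries. In HFD_DSS 2 the growth hormone list was at 0.134, above the untreated CD 1 (0.124), and the acute phase list at 0.219.

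**Figure D4:**
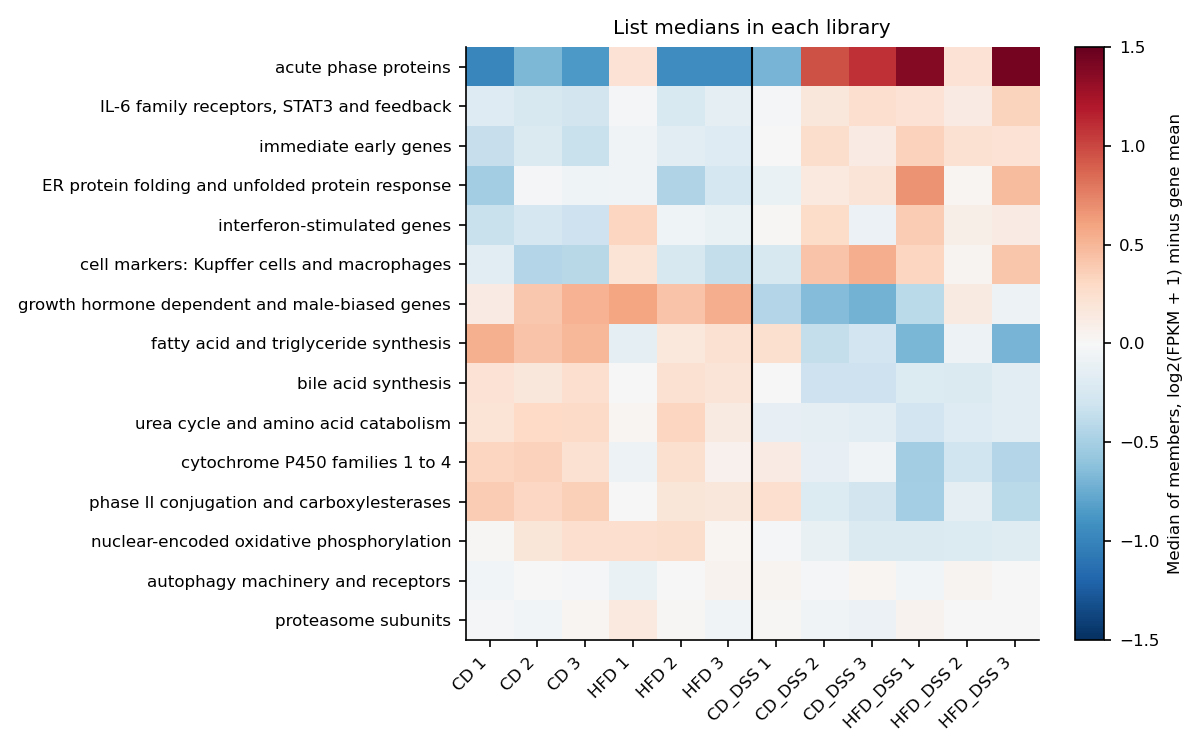
Median over the members of 15 gene lists of log2(FPKM + 1) minus each gene's mean over the 12 libraries (colour, red above and blue below the mean), with the 6 untreated libraries left of the black line and the 6 DSS libraries right of it. HFD 1 is red for acute phase proteins (0.214) among blue untreated libraries, and CD_DSS 1 is blue for them (-0.701) among red DSS libraries.

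Of the nuclear genes of oxidative phosphorylation most passed the test in the lower direction, each by a small amount. All 49 tested nuclear genes of oxidative phosphorylation had a negative average change with a median of -0.33, and 38 passed. In 22 the 2 sides did not overlap, against 3.85% of all tested genes that were separated in the lower direction. The share of genes called lower varied with level. It was 6.7% at a mean of 1 to 5 FPKM, 22.8% at 25 to 100 FPKM and 31.2% at 100 FPKM and more. The list was not compared with genes of like level. The count that passed stayed between 29 and 41 with any 1 library left out, and was 30 under TPM scaling and 24 after quantile normalisation. Sdhb, the iron-sulfur subunit of succinate dehydrogenase at chr4:140961203-140979193, was at 67.8 to 87.7 FPKM (median 75.4) untreated and 52.5 to 60.8 FPKM (median 53.3) with DSS (-0.46 ± 0.07, adjusted p = 0.00231). Ndufb3 of complex I changed by -0.57 ± 0.13 (adjusted p = 0.0122) and Cyc1 of complex III by -0.43 ± 0.08 (adjusted p = 0.00514), both without overlap. Esrra, a nuclear receptor that drives these genes, changed by -0.54 ± 0.10 (adjusted p = 0.00543), from 9.88 to 12.5 FPKM (median 10.6) to 5.63 to 8.73 FPKM (median 7.29). Of the 13 genes encoded in mitochondrial DNA 4 fell, but 2 when CD 1, CD 2, CD 3, HFD 2, CD_DSS 2, CD_DSS 3, HFD_DSS 2 or HFD_DSS 3 was left out, and none after quantile normalisation. Their share of the summed FPKM was 8.28 to 9.30% untreated and 6.20 to 7.99% with DSS, so the sides did not overlap.

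Several strong decreases lay outside metabolism as listed. Tsc22d1, a leucine zipper regulator at chr14:76414961-76507765, was at 7.20 to 25.2 FPKM (median 12.3) untreated and 2.50 to 3.95 FPKM (median 3.12) with DSS (-1.76 ± 0.14, adjusted p = 0.000130), without overlap. Sucnr1, the receptor for extracellular succinate, changed by -2.31 ± 0.29 (adjusted p = 0.00112), Car3, a carbonic anhydrase, a change of -2.25 ± 0.38 (adjusted p = 0.00397) and Aqp8, a water channel, a change of -1.79 ± 0.28 (adjusted p = 0.00267). Of the circadian clock, 4 of 15 tested genes fell and 2 rose, against 11.2% and 8.72% of all tested genes. With any 1 library left out 3 to 6 fell and 2 to 3 rose. The repressors Cry1 (-0.52 ± 0.11, adjusted p = 0.00932) and Cry2 (-0.43 ± 0.08, adjusted p = 0.00589) were among those that fell. Bhlhe40 (0.53 ± 0.12, adjusted p = 0.0140) was among those that rose. The hours at which the livers were taken are not in the labels, so time of day and treatment cannot be told apart. Hamp, which encodes the iron hormone hepcidin and which IL-6 is known to induce, changed by -2.73 ± 0.77 (adjusted p = 0.0296), a call lost without CD 3, HFD 2, HFD 3, CD_DSS 2, CD_DSS 3 or HFD_DSS 1. Fgf21, a fasting hormone of the liver, did not pass (0.85 ± 0.33, adjusted p = 0.0963) unless CD_DSS 3 was left out.

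Transcripts of autophagy genes, a process the study names in its title, did not move one way in the liver. The activity of the process was not measured. Of 44 tested genes of autophagy machinery and receptors 6 rose and 5 fell, with a median of 0.023. Of all tested genes 8.72% rose and 11.2% fell. Map1lc3b, the LC3 protein that coats autophagosomes, rose from 14.2 to 16.3 FPKM (median 14.8) to 17.1 to 21.7 FPKM (median 20.8), by 0.38 ± 0.07 (adjusted p = 0.00640), and Atg14, of the class III phosphatidylinositol 3-kinase complex, by 0.35 ± 0.06 (adjusted p = 0.00348), both without overlap. Ulk1, the kinase that starts the process, rose by 0.44 ± 0.11 (adjusted p = 0.0176) and its relative Ulk2 changed by -0.40 ± 0.10 (adjusted p = 0.0178), a call lost under TPM scaling. Sqstm1, the cargo receptor p62, rose by 0.24 ± 0.07 (adjusted p = 0.0250), a call lost without CD 3, HFD 2, CD_DSS 3 or HFD_DSS 1. The E1-like enzyme Atg7 changed by -0.25 ± 0.06 (adjusted p = 0.0135) and Atg5, of the conjugation system, a change of -0.21 ± 0.06 (adjusted p = 0.0280), which lost its call without CD 2, CD 3, HFD 2, CD_DSS 3 or HFD_DSS 3 and under TPM scaling. Becn1 (0.10 ± 0.05, adjusted p = 0.141) and Tfeb, the regulator of lysosome genes (0.16 ± 0.07, adjusted p = 0.140), did not pass. The numbers were 3 higher without CD 3, HFD 2, CD_DSS 3 or HFD_DSS 1, 3 lower without HFD 2 or CD_DSS 3, and 2 lower under TPM scaling. Proteasome subunits gave no call among 36 tested by limma or by voom, with 2 at an unadjusted p under 0.05, and 1 was higher without HFD_DSS 2 and 1 lower without CD_DSS 2. Ribosome biogenesis gave 2 higher among 48, and 0 to 6 with any 1 library left out.

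The 2 diets share no library, so the direction of change on one can be read against the other. Their p-values are not independent, because all 12 libraries were fitted together with 1 shared spread per gene. A gene with a small spread tends to a small p on both diets, which raises the shares with such a p below. On the CD 519 genes were called (4.80%), and 496 of them (95.57%) had the same direction on the high-fat diet, 383 (73.8%) with an unadjusted p under 0.05 there. On the high-fat diet 522 genes were called (4.83%), and 502 (96.17%) had the same direction on the CD, 402 (77.01%) with such a p. Over all tested genes 73.28% had the same direction, and 23.7% and 23.64% had such a p. The calls on both diets were 188, which is 36.22% of the CD and 36.02% of the high-fat calls. Both counts rested on single libraries: without one of them the CD calls ranged from 63 (without CD_DSS 3) to 1285 (without CD_DSS 1), and the high-fat calls from 9 (without HFD 2) to 910 (without CD_DSS 1). The other libraries that moved the CD count by more than 1.5 times were CD 1 (213), CD 2 (80), CD 3 (139), HFD 3 (312), CD_DSS 2 (84) and HFD_DSS 3 (316). For the high-fat count they were CD 2 (288), HFD 3 (116), HFD_DSS 1 (34), HFD_DSS 2 (880) and HFD_DSS 3 (36). Without the 3 intermediate libraries 1941 and 2028 genes were called, and 93.97% of the former had the same direction on the high-fat diet.

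**Figure D5:**
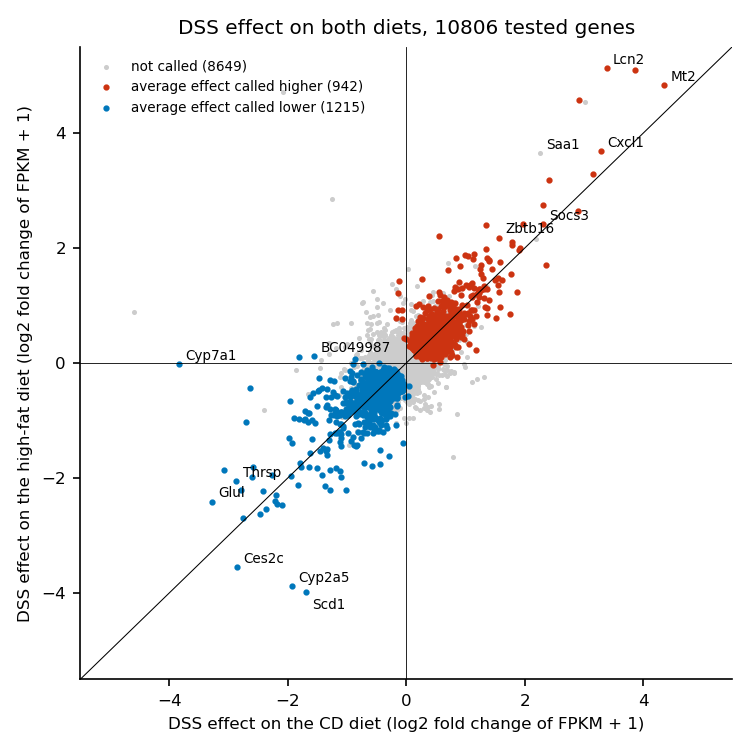
DSS effect on the CD (x axis) against that on the high-fat diet (y axis), both as log2 fold change of FPKM + 1, for 10806 tested genes, with 942 called higher on average in red, 1215 called lower in blue and the line of equal effects. Most called genes lie in the lower left and upper right corners. Genes were called on the average of both diets, which favours effects of the same sign. Their place is therefore no separate evidence that the diets agree. Cyp7a1 and BC049987 lie far from the line of equal effects.

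The test of the difference between diets called 1 gene, which is 0.00925% of the tested genes, with 533 (4.93%) at an unadjusted p under 0.05. It was BC049987, at -1.55 on the CD and 0.11 on the high-fat diet, a difference of 1.67 ± 0.19 (adjusted p = 0.0227). No gene was called when HFD 2, HFD 3, CD 1, CD 2, CD_DSS 1, CD_DSS 3, HFD_DSS 1 or HFD_DSS 2 was left out, and 2 were without CD 3 or HFD 1. Cholesterol synthesis and uptake was the list with the most unequal diets. Its median was -0.501 on the CD and 0.427 on the high-fat diet, and 18 of 25 tested members had an unadjusted p under 0.05 for the difference, each toward higher values on the high-fat diet, none of them called. Sqle, squalene epoxidase, changed by -0.14 on the CD and 1.23 on the high-fat diet (unadjusted p of the difference 0.00121). Asns, asparagine synthetase and a target of ATF4, also had unequal estimates, at -0.11 and 1.42 (unadjusted limma p of the difference 0.00268, not called).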

How the data were processed

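Liver RNA of 12 libraries was measured by RNA sequencing from total RNA with a SMARTer mRNA library kit, per the labels' protocols, and each library's group was read from its title. The authors deposited FPKM per gene for all 12 libraries in one table, on the mouse build mm10 per the submitters' processing notes. Aligner and counter: not given in the sources used here. FPKM times exon length (GENCODE M21, GRCm38) gave whole fragments within 0.02 for at least 96.97% of values under 500 fragments and 2.34e+07 to 2.94e+07 fragments per library. A symbol was matched for 54495 of 54532 gene IDs.

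Genes that reached 1 FPKM in 3 or more libraries were tested on log2(FPKM + 1) with limma 3.58.1 (R 4.3.3), with a mean per group, a trended prior and Benjamini-Hochberg adjustment over all 10806 genes, two-sided. The main contrast was the mean of both within-diet DSS effects. On simulated data of 10806 genes it called 86%, 96%, 100% and 100% of 50 genes changed by 1.5, 2, 4 and 8-fold, with 7 false among 198 calls. The simulated noise was independent between genes, so it held no shift of a whole library such as that of the 3 intermediate libraries. The folds were of FPKM + 1, in genes with a mean of at least 1 FPKM. These rates may therefore not hold for the real libraries. Members, gene lists and naming rule were all set with earlier results of these data known. The naming rule took the 15 highest and 15 lowest called genes whose sides did not overlap, up to 5 called members of each list by size of change, a fixed set of genes, and the 5 genes with the smallest p for the difference between diets. No set test was run. Other pseudocounts, filters, scalings, fits and left-out libraries were tried, and a voom fit of the recovered fragments and a fit without 3 libraries were added after seeing the data. Some genes that the naming rule takes are not reported here.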

Additional observations from a re-analysis of the deposited data

Results flagged for a closer look

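In 234 sets of 6 values, one set per named gene or list share and side, 14 had a highest or lowest library far from the others by Dixon's 95% limit of 0.625, and chance gives about 1 set in 20. In most of them HFD 1 was the library that stood apart from the other untreated ones. It was the highest for Saa1 (578.7 against 14.98 to 49.2 FPKM in the others), Saa2 (267 against 3.65 to 8.37 FPKM), Hp (4734 against 1571 to 1940 FPKM), Lcn2 (35.8 against 0.746 to 3.72 FPKM), S100a8 (6.35 against 0.416 to 0.66 FPKM) and Cxcl1 (8.13 against 0.408 to 1.46 FPKM). It was also the highest for Fgb (1894 FPKM), Slc39a14 (31.3 FPKM), Bcl3 (31.1 FPKM), Stat3 (22.2 FPKM) and the acute phase share of the summed FPKM (8.10% against 4.40 to 5.11%), and the lowest for Pygl (59.4 against 74.4 to 83.8 FPKM).

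The same limit was passed by Becn1 in CD_DSS 2 (7.01 against 6.46 to 6.64 FPKM in the other DSS libraries) and by Fgf21 in CD 2 (0.0869 against 0.651 to 1.07 FPKM in the other untreated libraries). The DSS effect on BC049987 differed between the diets by 1.665 on the log2 scale in the test of that difference (limma, adjusted p = 0.0227).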

How the results depend on the processing

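The average DSS effect gave 1306 to 2668 calls with 1 library left out, 4259 with library weights, 181 with an absolute log2 change of at least 1 required and 3359 without the 3 intermediate libraries. In the same order the CD diet gave 63 to 1285, 2592, 119 and 1941 calls, and the high-fat diet 9 to 910, 2820, 118 and 2028. With no filter they were 157 and 130. The difference between diets gave 0 to 2 calls with 1 library left out, 0 with no filter and 0 without the 3 libraries. The share of CD calls with the same direction on the high-fat diet was 94.32 to 97.62% with 1 library left out and 92.13% with library weights. Of the list members 415 were called, 277 to 502 with 1 library left out, 272 with no filter, 664 with weights and 88 with the fold limit. Of the named genes 95 were called, 85 to 101 with 1 library left out and 48 with the fold limit. No pairing by replicate number was seen in the departures from the group means. Correlations of same-numbered libraries ran from -0.356 to 0.258, and 2 of 12 libraries correlated best with their own number. The highest correlation, 0.461, was between the intermediate libraries CD_DSS 1 and HFD_DSS 2. Their shift may hide a pairing, so these values cannot tell whether one exists. With the replicate number as a block the calls were 1836 on average, 290 on the CD and 278 on the high-fat diet.

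Only genes that did not pass the test changed sign. With 1 library left out, Alb ran from -0.0690 to 0.204, Il1b from -0.0848 to 0.225, Nr0b2 from -0.165 to 0.14 and Ppara from -0.245 to 0.0453. Alb was at -0.0476 with weights and Il1b at -0.00878 with voom. Nr0b2 was at 0.00659 under TPM scaling and 0.0423 after quantile normalisation, and Igf1 at 0.065 after quantile normalisation. The cause of these changes was not tested. The mean log2 scale factor of the DSS libraries exceeded that of the untreated ones by 0.0242 in TPM scaling and by 0.0150 in median-of-ratios scaling. Since 1 was added after rescaling, genes did not all move by these amounts. Under TPM scaling the median change of the immediate early genes went from 0.418 to 0.639. That of the mitochondrially encoded genes went from -0.227 to -0.251. With no filter on low values the calls of Abcb11, Asns, Cyp7a1, Fasn, Hamp, Hp, Hspa5, Lcn2, Orm2, Rbp4 and Sqle were lost, and after quantile normalisation those of Abcb11, Atg5, Rbp4 and Slc10a1. List counts of 1 in a direction often became 0 or 2 with 1 library left out.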

Other observations

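The direction of the calls varied with the level of a gene. Of 459 genes with a mean of at least 100 FPKM, 143 fell and 69 rose with DSS, whereas of 4910 genes with a mean of 1 to 5 FPKM, 331 fell and 408 rose. After quantile normalisation 85 of the abundant genes fell and 93 rose, so the excess of decreases among them was not kept under that scaling. It was kept under TPM scaling (102 fell and 79 rose), median-of-ratios scaling (136 and 72) and with voom (149 and 72).

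Long intergenic noncoding RNAs were lower more than higher: 30 of 135 tested fell and 5 rose, and of 123 antisense transcripts 22 fell and 3 rose. Of 9758 protein-coding genes 1115 fell and 904 rose. The lincRNA numbers were 21 and 5 under TPM scaling, 31 and 4 after quantile normalisation, 38 and 7 without the 3 intermediate libraries and 24 and 5 with voom on the recovered fragments. No source used here says whether the counting used strand, and antisense values may hold fragments of the sense genes.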
